A study of Mus musculus with 6 samples.

Results

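The long noncoding RNAs described here are the rows that the deposited gene table types as lncRNA and that averaged at least 2 FPKM over the 6 libraries, with 1 row left out by name. FPKM scales the fragments of a gene to its length and to the depth of the library. The genes were selected on this measured level, which is described below without a test. The rule kept 197 genes of 9874 lncRNA rows and 49592 rows in all. It used each gene's level over both groups together and not the difference between them. Of the lncRNA rows, 4206 were above 0 in at least 1 library and 5668 were listed at 0 in all of them.

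Libraries came from C2C12, an established mouse myoblast line whose cells stop dividing and merge into contractile myotubes once serum is reduced. TWEAK, a TNF-family cytokine that signals through the receptor Fn14, was added at 10 ng/ml for 12 h to myotubes that had differentiated for 3 days in 2% horse serum after growth in 10% FBS. The untreated myotubes went through the same growth and differentiation without the cytokine. Each group had 3 libraries of poly(A)-selected RNA, numbered by trial. The labels do not say whether the trials were separate cultures, and the p-values therefore reflect variation among these libraries alone.

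Long noncoding RNAs are transcripts without a long open reading frame. Some act as the spliced RNA, as Xist does on the X chromosome and Neat1 in paraspeckles; others matter as carriers, because small nucleolar RNAs (snoRNAs, which guide chemical modification of ribosomal RNA) or microRNAs are cut out of their primary transcript. In muscle, several microRNAs that support differentiation are made from such host transcripts. Poly(A) selection captures the polyadenylated host RNA and not the mature snoRNA or microRNA.

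The libraries held 29970016 to 40909161 reads, recovered from the deposited values. The 197 lncRNAs took 0.572% to 0.646% of the reads in TWEAK libraries and 0.649% to 0.710% in untreated libraries. A few long or abundant RNAs weigh heavily in these shares. Malat1 had 189601 reads with TWEAK and 268790 without, Xist 71945 and 100083, and Neat1 44414 and 55699. As shares of summed FPKM the groups overlapped, at 0.542% to 0.583% with TWEAK and 0.571% to 0.604% without. All 9 muscle markers checked were above 0.5 FPKM, the lowest level tested, with summed levels of 13737 to 15633 FPKM with TWEAK and 15383 to 16833 FPKM without. The endothelial, adipocyte and neural lists had 0 of 4 markers each above that minimum, the macrophage and leukocyte list 1 of 6 (Adgre1 and Cd3e were listed at 0), and the osteoblast list 1 of 4 (Ibsp was listed at 0). In bulk RNA, fewer cells of a type and less RNA per cell cannot be told apart.

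Most of these lncRNAs were scarce. Their mean levels ran from 2.01 to 322 FPKM with a median of 3.87 FPKM; 118 lay under 5 FPKM, 39 reached 10 FPKM and 3 reached 100 FPKM. Reads per gene, summed over the 6 libraries, had a median of 1094 and ranged from 43 to 458391, with 17 genes under 300 reads. The median coefficient of variation within a group was 12.9% with TWEAK and 10.9% without. Names are mostly provisional, since 143 of the 197 are Gm or Rik identifiers. Just inside the threshold stood Gm20163 at 2.01 FPKM, Gm17491 at 2.02 FPKM and BC039966 at 2.02 FPKM, and just outside it 9430073C21Rik, Sp3os and Gm11884, each at 1.99 FPKM.

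The most abundant was Malat1, the nuclear speckle RNA. It alone took 12.1% to 13.9% of the summed level of the 197 lncRNAs in TWEAK libraries and 14% to 17.2% in untreated libraries. Bc1, a small cytoplasmic RNA known from rodent neurons, followed at 158 ± 37.5 FPKM with TWEAK and 181 ± 28.9 FPKM without (mean ± SD, n = 3 each, as for all such values here), and Gm10076 at 153 ± 11.9 FPKM with TWEAK and 149 ± 6.54 FPKM without. Neither differed between the groups by limma (adjusted p = 0.464 for Bc1 and adjusted p = 0.823 for Gm10076). The 10 highest also held 2410006H16Rik, AI506816 and Zfas1, which carry snoRNAs, Gm28653 and Mir22hg, which carry microRNAs, and Xist and Gm47015.

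After TWEAK, 26 of the 197 lncRNAs rose and 16 fell past an adjusted p of 0.05, together 21.3% (limma on log2(FPKM + 1), p adjusted by the Benjamini-Hochberg method over all genes tested). By direction this was 13.2% higher and 8.12% lower, while of all 12770 genes tested 15.1% passed, 8.98% higher and 6.1% lower. Among 9918 protein-coding genes with the same minimum level, 16.2% passed, 9.55% higher and 6.66% lower. Of the 439 lncRNAs from 0.5 to under 2 FPKM, which the rule leaves out, 6.61% passed. The shares are descriptions, and no test of their difference was made. Membership also favours genes that differ, since 12 lncRNAs reached a mean of 2 FPKM through the TWEAK group alone (7 of them called higher, among them Gm30873, Gm6093, 4833438C02Rik, Junos and Pvt1) and 8 through the untreated group alone (2 called lower, Gm20163 and 1810021B22Rik). Of the 177 with at least 2 FPKM in both groups, 19 rose (10.7%) and 14 fell (7.91%). Changes were mostly small: the median log2 fold change was -0.05 for the lncRNAs and 0.01 for all genes tested, and 3 lncRNAs went beyond 1 in either direction. Log2 fold changes are differences in mean log2(FPKM + 1), TWEAK minus untreated, a scale that makes the changes of scarce genes look smaller, and folds are ratios of mean FPKM.

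The trial numbers moved these counts. Libraries of the same trial deviated together, and with the trial as a replicate block in limma 82 lncRNAs passed (41.6%, against 27.9% of all genes tested), 35 of them higher and 47 lower, including all of the 42 called without the block. The median log2 fold change was the same with the block. Between the groups, 34 lncRNAs had all TWEAK libraries above all untreated libraries and 41 had all of them below; this was 17.3% of the lncRNAs on the higher side and 20.8% on the lower side, and 20% and 15.9% of all genes tested on the same sides. Within the trials, 48 lncRNAs (24.4%) were higher with TWEAK in all 3 and 71 (36%) were lower in all 3, and of all genes tested 31% were higher and 27.5% lower in all 3. Single libraries mattered as well: without TWEAK replicate 2, 16 lncRNAs passed (9 higher, 7 lower), without untreated replicate 1, 21 (11 higher, 10 lower), and without untreated replicate 2, 24 (15 higher, 9 lower). Leaving out untreated replicate 3 left 16 that rose, and leaving out TWEAK replicate 1 raised the number that fell to 26. With no filter on low values 11 lncRNAs passed. Only 13 of the 42 calls held in all 6 fits that leave out a library, 7 of them higher (AU020206, Gm30873, Gm6093, 4833438C02Rik, Junos, Snhg15 and Gas5) and 6 lower (Hectd2os, Gm12352, C130080G10Rik, Gm20163, Gm29773 and 1810021B22Rik).

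**Figure D1:**
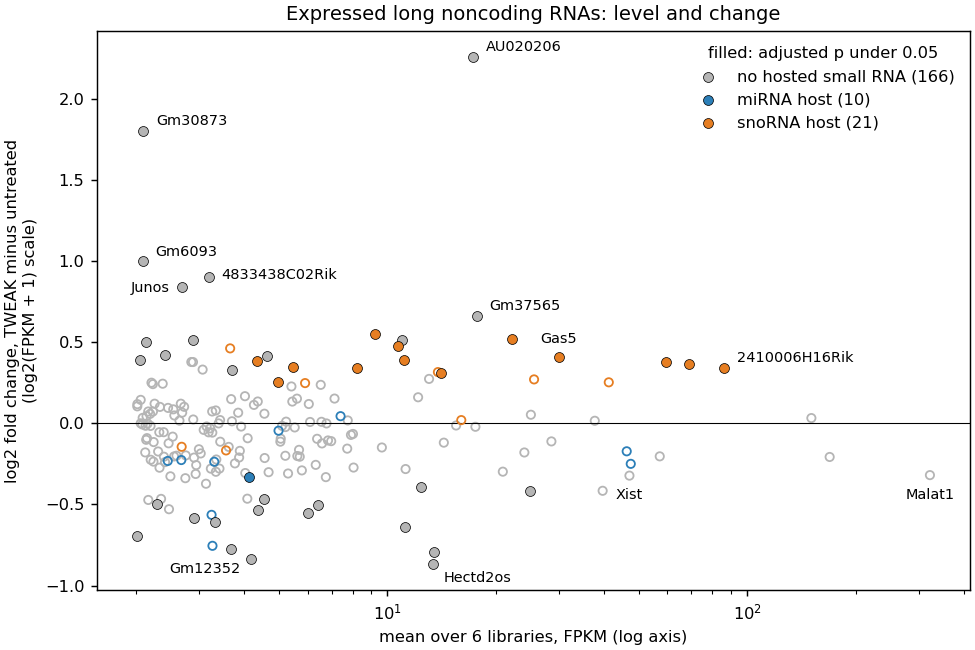
Each point is 1 of the 197 long noncoding RNAs, with its mean level over the 6 libraries in FPKM on a log axis and its log2 fold change (log2(FPKM + 1), TWEAK minus untreated); filled points passed an adjusted p of 0.05 in limma and colours mark the small RNAs carried. AU020206 stands highest at 2.26, the filled orange snoRNA hosts lie between 0.25 and 0.55, and Hectd2os is lowest at -0.87.

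The clearest shared direction was that of the snoRNA hosts. By the mouse GENCODE M21 annotation, 21 of the 197 lncRNAs carry at least 1 snoRNA or small Cajal body RNA on the same strand within their bounds. Of these 21, 13 rose and 0 fell, with a median log2 fold change of 0.34; 18 were higher with TWEAK in all 3 trials, and with the replicate block 18 passed, all higher. At an unadjusted p under 0.05 in limma, 18 were higher and 0 lower. Of all 197 lncRNAs, 81 were under that p in either direction. Limma-voom gave 13 and 0 for the hosts, and the authors' deposited table listed 16 and 0. With no filter on low values 1 of the hosts passed. The 10 lncRNAs that carry only microRNAs had 0 higher and 1 lower with a median of -0.23. At an unadjusted p under 0.05 in limma these 10 had 0 higher and 5 lower. The 166 in which this annotation shows neither had 13 higher and 15 lower with a median of -0.07. The authors' deposited table tags 9 of these 166 as ncRNA_host, and of the 9, 2 rose and 0 fell. Grouping by carried small RNAs was made after the values were seen. A list of known snoRNA hosts is no separate evidence, since its 15 genes among the lncRNAs are all among the 21 (11 rose, 0 fell, median 0.35).

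Summed over the 21 hosts, the level was 445, 515 and 545 FPKM in TWEAK libraries and 374, 406 and 397 FPKM in untreated libraries, so the groups did not overlap. The difference between these and scarcer lncRNA hosts was not tested, and the scarcer ones had as few as 64 reads. Of 9 with 0.5 to under 2 FPKM, 0 passed limma and the median was 0.03 (1 rose and 1 fell with the replicate block, 0 rose and 1 fell with limma-voom, and 1 was higher and 1 lower at an unadjusted p under 0.05). Among 204 protein-coding snoRNA hosts of at least 2 FPKM, 29 rose and 7 fell with a median of 0.07. Of all 9918 protein-coding genes of that level, 947 rose (9.55%) and 661 fell (6.66%) with a median of 0.02. Which hosts passed depended on single libraries. The number was 3 without TWEAK replicate 2, 6 without TWEAK replicate 3, 3 without untreated replicate 1, 4 without untreated replicate 2, 7 without untreated replicate 3 and 16 without TWEAK replicate 1. Gas5 and Snhg15 passed in all of these.

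Snhg15, host of Snora9, had 10.1, 12.4 and 10.9 FPKM in TWEAK libraries, against 8.15, 7.35 and 6.40 FPKM in untreated libraries. All TWEAK values lay above all untreated values. The rise was 1.53-fold (log2 fold change 0.55, SE 0.10, limma adjusted p = 0.00793). Gas5, named for its accumulation in growth-arrested mouse cells and carrier of many box C/D snoRNAs, had 31.7, 34.0 and 37.0 FPKM with TWEAK, against 25.1, 24.4 and 27.3 FPKM without. Here too the groups were apart, by 1.34-fold (log2 fold change 0.41, SE 0.08, limma adjusted p = 0.00875). Snhg3, which carries Snora73a and Snora73b, had 21.4, 28.1 and 29.3 FPKM with TWEAK, against 15.0, 17.7 and 21.4 FPKM without. Its groups touched, at TWEAK replicate 1 and untreated replicate 3, although it was higher with TWEAK in each of the 3 trials (1.46-fold, log2 fold change 0.52, SE 0.14, limma adjusted p = 0.0377). That call was lost without TWEAK replicate 2 (adjusted p = 0.128), TWEAK replicate 3 (0.102), untreated replicate 1 (0.119) or untreated replicate 2 (0.114).

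The 3 most abundant hosts moved by similar factors. 2410006H16Rik, which carries Snord49a, Snord49b and Snord65, had 84.8, 97.0 and 108 FPKM with TWEAK, against 73.1, 78.7 and 75.5 FPKM without (1.28-fold, limma adjusted p = 0.0359). AI506816 had 70.8, 81.9 and 80.0 FPKM with TWEAK, against 54.2, 64.1 and 61.8 FPKM without (1.29-fold, limma adjusted p = 0.0216). The only entry AI506816 carries is Mir3096, which GENCODE M21 types as snoRNA despite its microRNA name. Zfas1, carrier of Snord12 and partly antisense to Znfx1, had 58.9, 67.3 and 75.8 FPKM with TWEAK, against 50.5, 54.0 and 49.4 FPKM without (1.31-fold, limma adjusted p = 0.0247). In all 3 genes the TWEAK values were above every untreated value.

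Snhg1, Snhg4, Snhg5, Snhg12, Snhg16, Snhg17 and Epb41l4aos completed the 13, with folds from 1.24 for Snhg17 to 1.44 for Epb41l4aos. Epb41l4aos lost its call only without TWEAK replicate 2 (limma adjusted p = 0.0612) and AI506816 without TWEAK replicate 2 (0.098) or untreated replicate 1 (0.086); the other 9 that were not stable lost theirs in 3 to 6 of the 6 fits. Rab26os, Snhg6, Snhg8, Snhg20 and 1110038B12Rik, all higher with TWEAK in each trial, did not pass without the block and passed with it, at adjusted p values of 0.0571 and 0.0101 for Rab26os, 0.0577 and 0.00317 for Snhg6, 0.0957 and 0.00652 for Snhg8, 0.0735 and 0.0325 for Snhg20, and 0.134 and 0.0315 for 1110038B12Rik. The 3 hosts that passed neither way were AA465934 (log2 fold change 0.02), Snhg18 (-0.14) and 2900076A07Rik (-0.17).

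**Figure D2:**
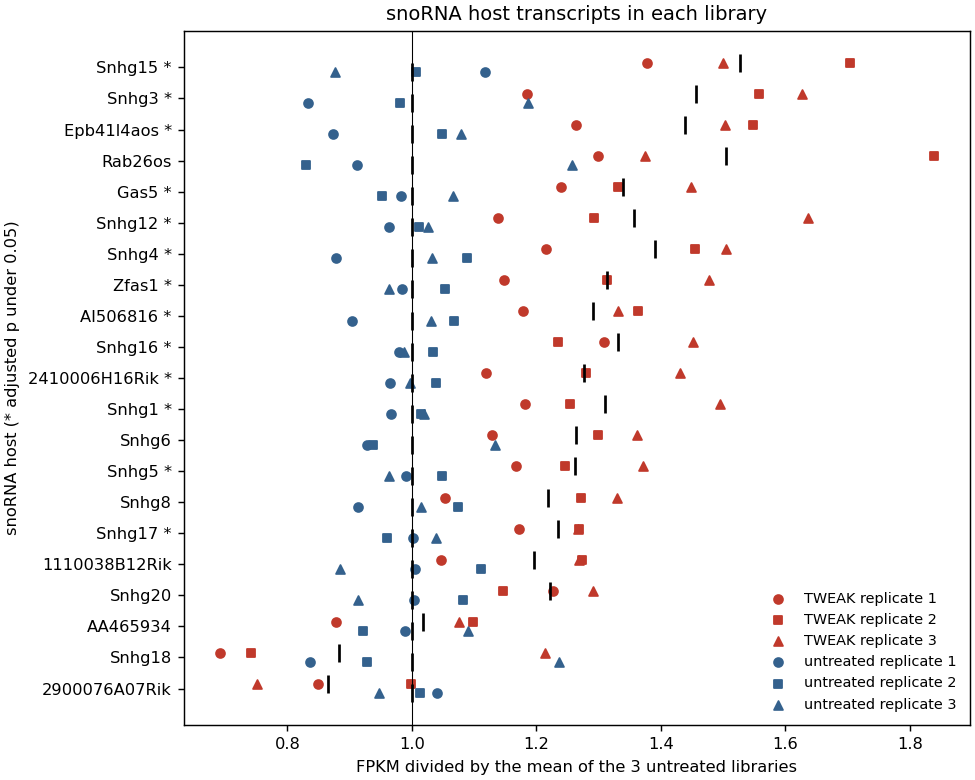
Each row is 1 of the 21 snoRNA hosts, and each point is 1 library's FPKM divided by the mean of the 3 untreated libraries, with red for TWEAK, blue for untreated, a shape for each trial and black ticks for group means. From Snhg15 to Snhg20 the TWEAK means lie to the right of 1, and Snhg18 and 2900076A07Rik lie to the left.

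Transcripts of snoRNA hosts are known for a start rich in C and T, the terminal oligopyrimidine tract, through which growth signals control their translation and stability. The windows of 30 bases on either side of the annotated start are shown for 6 hosts, some with and some without a match to a simple C and T pattern. A match or its absence does not settle whether the tract is there. They come from RefSeq on GRCm38.p6: Gas5 at chr1:161035136-161035195 (plus strand, the second of its listed starts), Snhg16 at chr11:116671630-116671689 (plus), Snhg12 at chr4:132308648-132308707 (plus), 2410006H16Rik at chr11:62602847-62602906 (plus), Snhg15 at chr11:6528731-6528790 (minus) and Snhg1 at chr19:8723457-8723516 (plus). Capitals mark a C followed by at least 4 more C or T, read on the gene's strand and beginning within 10 bases before to 25 after the start. In Snhg1 a run of T and C shortly after the start is unmarked because it begins with T.
Gas5: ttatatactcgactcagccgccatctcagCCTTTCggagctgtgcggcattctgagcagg
Snhg16: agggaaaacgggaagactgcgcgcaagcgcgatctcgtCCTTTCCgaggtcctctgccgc
Snhg12: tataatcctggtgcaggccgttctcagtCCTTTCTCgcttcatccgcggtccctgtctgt
2410006H16Rik: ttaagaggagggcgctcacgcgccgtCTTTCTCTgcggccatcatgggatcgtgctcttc
Snhg15: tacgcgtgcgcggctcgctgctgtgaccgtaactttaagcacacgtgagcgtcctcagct
Snhg1: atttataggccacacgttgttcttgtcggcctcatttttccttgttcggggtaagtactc
Such a run was found at 12 of 21 listed starts of the snoRNA hosts (57.1%; 18 hosts had an entry). The share was 53.8% for the hosts that rose, 44.6% for lncRNAs that carry no snoRNA and 40.0% for all RefSeq promoters. Such runs were common at starts of all kinds. Snhg15, with the largest log2 fold change of the hosts, showed none in its window, nor did the first listed start of Gas5. Whether a run bears on the rise was not tested. The search was chosen after the values were seen.

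Apart from the snoRNA hosts, 13 lncRNAs rose, and they held the largest rises among the 26. AU020206 (ENSMUSG00000097415.3, GRCm39 chr7:75418786-75431847, minus strand, with no protein-coding gene within 5 kb) had 23.1, 35.4 and 29.4 FPKM in TWEAK libraries, against 4.91, 5.04 and 5.81 FPKM in untreated libraries. The lowest TWEAK value was far above the highest untreated value. It rose 5.58-fold (log2 fold change 2.26, SE 0.13, limma adjusted p = 2.18e-05), on 8452 reads with TWEAK and 1696 without. The authors' deposited table gives it a log2 fold change of 2.48.

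Gm30873 (ENSMUSG00000109341.2, GRCm39 chr7:83987303-83997077) had 4.14, 4.33 and 2.97 FPKM with TWEAK, against 0.420, 0.498 and 0.202 FPKM without. It had 446 reads in TWEAK libraries and 47 in untreated libraries, and its TWEAK level alone brought it to the mean of 2 FPKM that the rule asks for. The 10.2-fold rise in mean FPKM corresponds to a log2 fold change of 1.80 (SE 0.13, limma adjusted p = 6.5e-05). All 9775 bases of its span lie within Arnt2, on the opposite strand; Arnt2, which encodes a bHLH-PAS transcription factor, was at 1.74 ± 0.253 FPKM with TWEAK and 1.43 ± 0.131 FPKM without (log2 fold change 0.17, limma adjusted p = 0.264).

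4833438C02Rik (ENSMUSG00000118087.2, GRCm39 chr19:46292030-46294050, minus strand) runs head to head with Nfkb2, the gene of the p100 precursor of the alternative NF-kB pathway, and shares 1292 bases with it. The lncRNA had 3.90, 5.15 and 4.36 FPKM with TWEAK, against 1.78, 2.16 and 1.82 FPKM without. It rose 2.33-fold without overlap between groups (log2 fold change 0.90, SE 0.10, limma adjusted p = 0.000732). Nfkb2 itself was at 77.5 ± 9.18 FPKM with TWEAK and 22 ± 1.73 FPKM without. Whether counting used the strand is not given in the sources used here. Reads in the bases that this pair shares, or any overlapping pair below, can therefore not be told apart.

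The promoters of 4833438C02Rik and AU020206 are shown because TWEAK signals through NF-kB, with 250 bases before and 50 after the annotated start (RefSeq, GRCm38.p6). The first lies at chr19:46305580-46305879 and the second at chr7:75782071-75782370, both on the minus strand and printed as that strand reads. Capitals mark the match to the kappa B consensus, searched by name on both strands.
4833438C02Rik: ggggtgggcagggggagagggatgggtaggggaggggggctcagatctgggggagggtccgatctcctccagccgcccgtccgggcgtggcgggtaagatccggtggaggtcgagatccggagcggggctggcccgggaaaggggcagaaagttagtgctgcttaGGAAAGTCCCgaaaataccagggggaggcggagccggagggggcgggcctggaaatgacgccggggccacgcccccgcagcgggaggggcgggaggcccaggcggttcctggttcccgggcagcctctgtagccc
AU020206: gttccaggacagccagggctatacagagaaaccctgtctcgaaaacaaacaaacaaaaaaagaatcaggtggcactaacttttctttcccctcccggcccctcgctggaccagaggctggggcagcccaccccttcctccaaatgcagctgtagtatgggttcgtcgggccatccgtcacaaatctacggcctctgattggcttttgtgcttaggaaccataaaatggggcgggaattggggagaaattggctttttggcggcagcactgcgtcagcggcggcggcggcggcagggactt
The window of 4833438C02Rik held 1 match and that of AU020206 none. The promoter of Gm30873, searched in the same way and not shown, held none. By the GRCm39 positions 4833438C02Rik starts inside Nfkb2, which spans 46292759 to 46300824. The match can therefore not be assigned to the lncRNA rather than to Nfkb2. Matches were present at 2 of 30 listed starts of lncRNAs that rose (6.67%) and at 2 of 11 of lncRNAs that fell (18.2%). The share was 4.51% for all RefSeq promoters. A gene can have several listed starts (30 for 21 lncRNAs that rose), and the difference between these shares was not tested. For TGANTCA, the AP-1 motif, the shares were 4 of 30 (13.3%), 1 of 11 (9.09%) and 7.81%. A match is a description and not a binding site.

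Junos (ENSMUSG00000087366.8, GRCm39 chr4:94939771-95055555) is a long antisense transcript that overlaps Jun, an AP-1 subunit gene, by 689 bases. Its levels were 4.57, 3.23 and 3.46 FPKM with TWEAK, against 1.57, 1.69 and 1.63 FPKM without, a 2.30-fold rise (log2 fold change 0.84, SE 0.11, limma adjusted p = 0.00146). Jun stood at 47.6 ± 2.11 FPKM with TWEAK and 48.1 ± 6.32 FPKM without (limma adjusted p = 0.977, log2 fold change -0.01, SE 0.10). A difference was detected for the antisense RNA and not for its much more abundant partner, and the 2 changes were not tested against each other.

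Gm6093 (chr13:33746469-33753300) had 3.18, 3.90 and 2.33 FPKM with TWEAK, against 1.15, 1.01 and 0.969 FPKM without, which made it 3.01-fold higher (log2 fold change 1.00, limma adjusted p = 0.0017). It too met the level rule through its TWEAK libraries alone. Gm37565 (chr2:12702228-12711664) had 25.4, 24.5 and 16.5 FPKM with TWEAK, against 13.2, 13.6 and 13.3 FPKM without. Its rise of 1.65-fold (limma adjusted p = 0.0133) was narrowest in trial 3, and the call was lost without TWEAK replicate 2 (adjusted p = 0.0559) or untreated replicate 2 (0.0512). Neither Gm6093 nor Gm37565 has a protein-coding gene in or within 5 kb of its span.

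Pvt1, the lncRNA next to Myc and often gained with it in human tumours, had 2.32, 2.85 and 2.22 FPKM with TWEAK, against 1.58, 1.83 and 1.52 FPKM without. The groups were apart and the rise was 1.5-fold (log2 fold change 0.39, SE 0.10, limma adjusted p = 0.0276). It did not pass without TWEAK replicate 2 (adjusted p = 0.112) or untreated replicate 1 (0.0867), 2 (0.0501) or 3 (0.084). Brip1os, divergent from the DNA repair helicase gene Brip1 with 177 bases between them, had 11.8, 14.4 and 13.0 FPKM with TWEAK, against 7.56, 9.88 and 9.22 FPKM without. It rose 1.47-fold (limma adjusted p = 0.0117, and 0.0531 without TWEAK replicate 2). Brip1 rose as well, at 1.66 ± 0.312 FPKM with TWEAK and 0.831 ± 0.204 FPKM without (log2 fold change 0.54, limma adjusted p = 0.0156). Brip1os also overlaps Ints2 by 46895 bases (log2 fold change 0.01, adjusted p = 0.919) and Med13 by 37411 bases (log2 fold change -0.28, adjusted p = 0.0627), both on the opposite strand.

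The other 5 were 4930447F24Rik, Gm12415, 4933404O12Rik, F730043M19Rik and B230206L02Rik, at 1.33-fold to 1.71-fold. In each, all TWEAK libraries were above all untreated ones, and each lost its call in 1 to 5 of the 6 fits without a library. B230206L02Rik was the least stable of these 5 across the processing alternatives, with limma adjusted p values of 0.0466 in the main fit, 0.132 with limma-voom on recovered reads and 0.0898 with limma-voom and the replicate block.

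**Figure D3:**
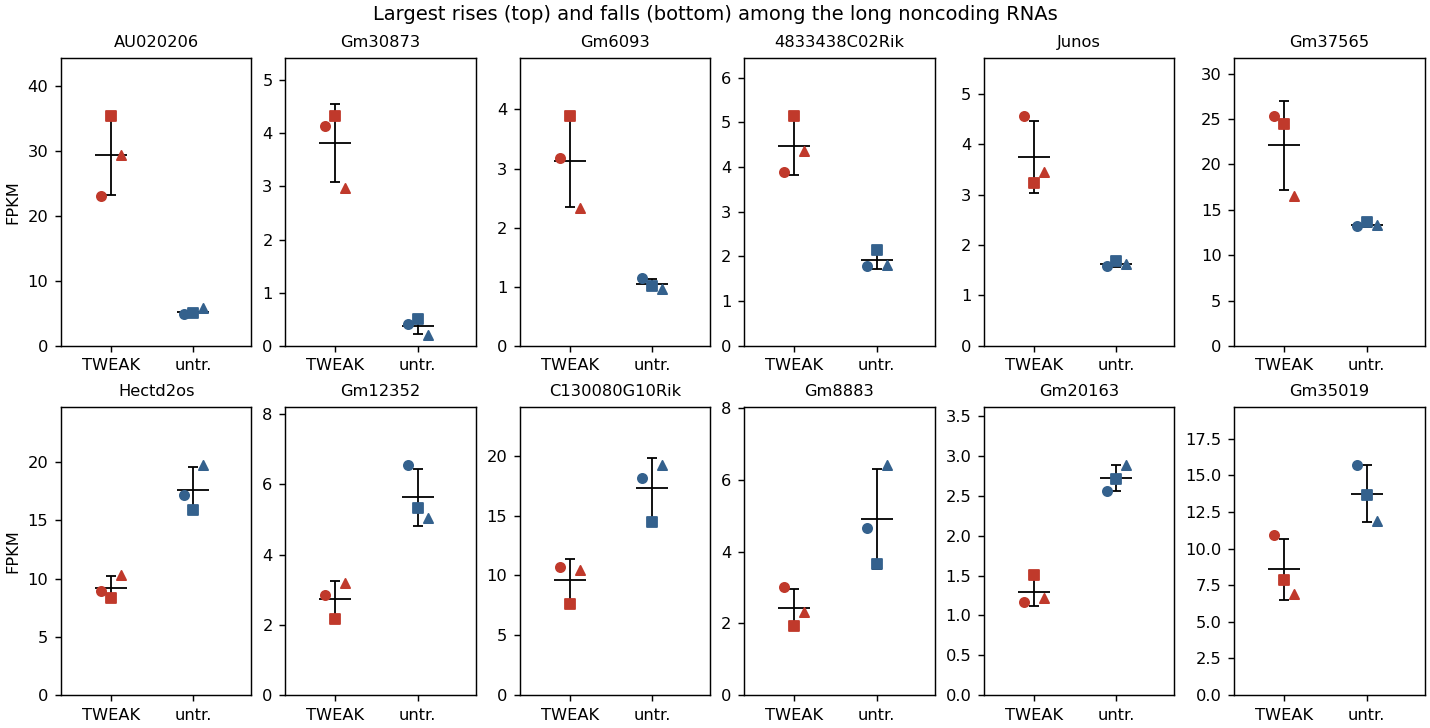
FPKM in each library for the 6 largest rises (top row) and 6 largest falls (bottom row) among lncRNAs past an adjusted p of 0.05, with TWEAK in red and untreated (untr.) in blue; circles, squares and triangles are replicates 1, 2 and 3, horizontal bars are means and whiskers SD (n = 3). In every panel the groups do not overlap, from AU020206 at 23.1 to 35.4 FPKM with TWEAK and 4.91 to 5.81 FPKM without, to Gm35019 at 6.91 to 10.9 FPKM with TWEAK and 11.9 to 15.7 FPKM without.

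Among the 16 that fell, none reached a log2 fold change of -1. Hectd2os (ENSMUSG00000087579.8, GRCm39 chr19:36591452-36683041, minus strand) had 8.95, 8.30 and 10.3 FPKM with TWEAK, against 17.2, 15.9 and 19.8 FPKM without. The groups were well apart, at 1.92-fold lower (log2 fold change -0.87, SE 0.10, limma adjusted p = 0.000764). Hectd2, the ubiquitin ligase gene it overlaps on the opposite strand by 7084 bases, was at 0.703 ± 0.0311 FPKM with TWEAK and 0.912 ± 0.151 FPKM without and did not pass (limma adjusted p = 0.262).

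C130080G10Rik starts 787 bases from Actc1, the gene of cardiac alpha-actin, which developing skeletal muscle also expresses. The lncRNA had 10.7, 7.58 and 10.5 FPKM with TWEAK, against 18.1, 14.5 and 19.3 FPKM without, 1.80-fold lower (log2 fold change -0.79, SE 0.14, limma adjusted p = 0.00617). Actc1 fell with it, at 549 ± 78.0 FPKM with TWEAK and 1034 ± 38.3 FPKM without (log2 fold change -0.92, limma adjusted p = 0.00131). The muscle marker list has values beside this fall: of its 9 genes, Myod1 (log2 fold change -0.31) and Myh3 (-0.74) fell by limma, at adjusted p values of 0.0142 and 0.00615, and the other 7 did not pass, with Myog (0.23), Des (0.20) and Mymk (0.16) above 0 on the same scale. Their part in the result was not tested.

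A second actin neighbour is Gm29773, 1522 bases from Acta1, the skeletal alpha-actin gene, and overlapping the nucleoporin gene Nup133 by 3498 bases. Gm29773 had 2.57, 2.11 and 2.57 FPKM with TWEAK, against 4.63, 4.24 and 3.76 FPKM without, 1.74-fold lower with no overlap between groups (log2 fold change -0.61, SE 0.09, limma adjusted p = 0.00404). Acta1 was at 3337 ± 150 FPKM with TWEAK and 4001 ± 257 FPKM without and did not pass (limma adjusted p = 0.182). Nup133 had a log2 fold change of 0.26 (limma adjusted p = 0.0566).

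Gm12352 lies 321 bases from the receptor tyrosine kinase gene Erbb2 and overlaps Mien1 on the opposite strand by 955 bases. It had 2.86, 2.16 and 3.18 FPKM with TWEAK, against 6.56, 5.32 and 5.03 FPKM without, 2.07-fold lower (log2 fold change -0.83, SE 0.12, limma adjusted p = 0.00316). Erbb2 was at 20.2 ± 2.41 FPKM with TWEAK and 26.3 ± 3.14 FPKM without, with an adjusted p of 0.0504 in limma, and Mien1 had a log2 fold change of 0.12 (adjusted p = 0.393).

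Gm20163 was the case in which lncRNA and partners moved in opposite directions. It had 1.16, 1.51 and 1.22 FPKM with TWEAK, against 2.57, 2.71 and 2.89 FPKM without, 2.10-fold lower (log2 fold change -0.70, SE 0.09, limma adjusted p = 0.00143). On the other strand, Exoc3l, whose product resembles an exocyst subunit, shares 1562 bases with it and was at 20.4 ± 0.131 FPKM with TWEAK and 10.4 ± 1.2 FPKM without (limma adjusted p = 0.000232, log2 fold change 0.91, SE 0.08). The second partner, 4931428F04Rik, shares 187 bases and was at 11.1 ± 1.15 FPKM with TWEAK and 8.66 ± 0.542 FPKM without (log2 fold change 0.33, limma adjusted p = 0.0361). Gm20163 is also the lncRNA nearest the level threshold of the rule, which it met through its untreated libraries alone.

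Gm8883 had 3.01, 1.93 and 2.30 FPKM with TWEAK, against 4.67, 3.66 and 6.42 FPKM without, 2.03-fold lower (limma adjusted p = 0.0158, and 0.0625 without TWEAK replicate 2). Gm35019 had 10.9, 7.89 and 6.91 FPKM with TWEAK, against 15.7, 13.7 and 11.9 FPKM without, 1.61-fold lower (limma adjusted p = 0.0212). Its call was lost without TWEAK replicate 2 (adjusted p = 0.0789), TWEAK replicate 3 (0.0536), untreated replicate 1 (0.0721) or untreated replicate 2 (0.0752). 1810021B22Rik, 1.64-fold lower (limma adjusted p = 0.00638), kept its call whichever library was left out. Gm16534, which lies whole within Fam78a on the same strand, was 1.73-fold lower (limma adjusted p = 0.0104, and 0.0512 without untreated replicate 2), and Fam78a fell too (log2 fold change -0.61, limma adjusted p = 0.0241). Apart from Dnm3os, described with the microRNA hosts, the remaining lncRNAs that fell, Gm36377, Gm33424, Srrm4os, Gm49808, Gm32618 and Gm38534, were 1.34-fold to 1.6-fold lower, with adjusted p values from 0.0163 to 0.0465, and each lost its call in 3 to 5 of the 6 fits without a library.

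Of the 197 lncRNAs, 74 overlap a protein-coding row on GRCm39, not counting a row that carries the same symbol. The 89 overlapping pairs comprise 74 on opposite strands and 15 on the same strand, with strands taken from GENCODE M21. Of 17 pairs in which the lncRNA passed and the partner was tested, the partner passed in the same direction in 3 (Snhg3 with Rcc1, 4833438C02Rik with Nfkb2, and Gm16534 with Fam78a), in the other direction in 2 (both with Gm20163) and not at all in 12. Of 55 pairs with an uncalled lncRNA and a tested partner, 11 had a partner that passed (20%), near the 16.2% of protein-coding genes of at least 2 FPKM. Of 14 pairs within 5 kb without overlap in which the lncRNA passed and the partner was tested, the partner passed in the same direction in 2 (Actc1 and Brip1), in the other direction in 0 and not at all in 12; of 65 such pairs with an uncalled lncRNA, 10 had a partner that passed (15.4%). Both shares of near pairs, 14.3% and 15.4%, are close to that background. For a pair on the same strand, counting by strand would not separate the reads in the shared bases either. Gm16534 lies whole within Fam78a, sharing 14826 bases, and Snhg3 shares 5592 bases with Rcc1, the Ran exchange factor gene, on the same strand. Rcc1 was at 17.5 ± 2.38 FPKM with TWEAK and 11.3 ± 0.420 FPKM without (log2 fold change 0.58, limma adjusted p = 0.00482). Among the 122 lncRNAs that overlap no protein-coding row, one of the same symbol included, 16 rose and 8 fell. This is near the shares of all 197 lncRNAs, of which 13.2% rose and 8.12% fell. Of all genes tested, 8.98% rose and 6.1% fell.

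**Figure D4:**
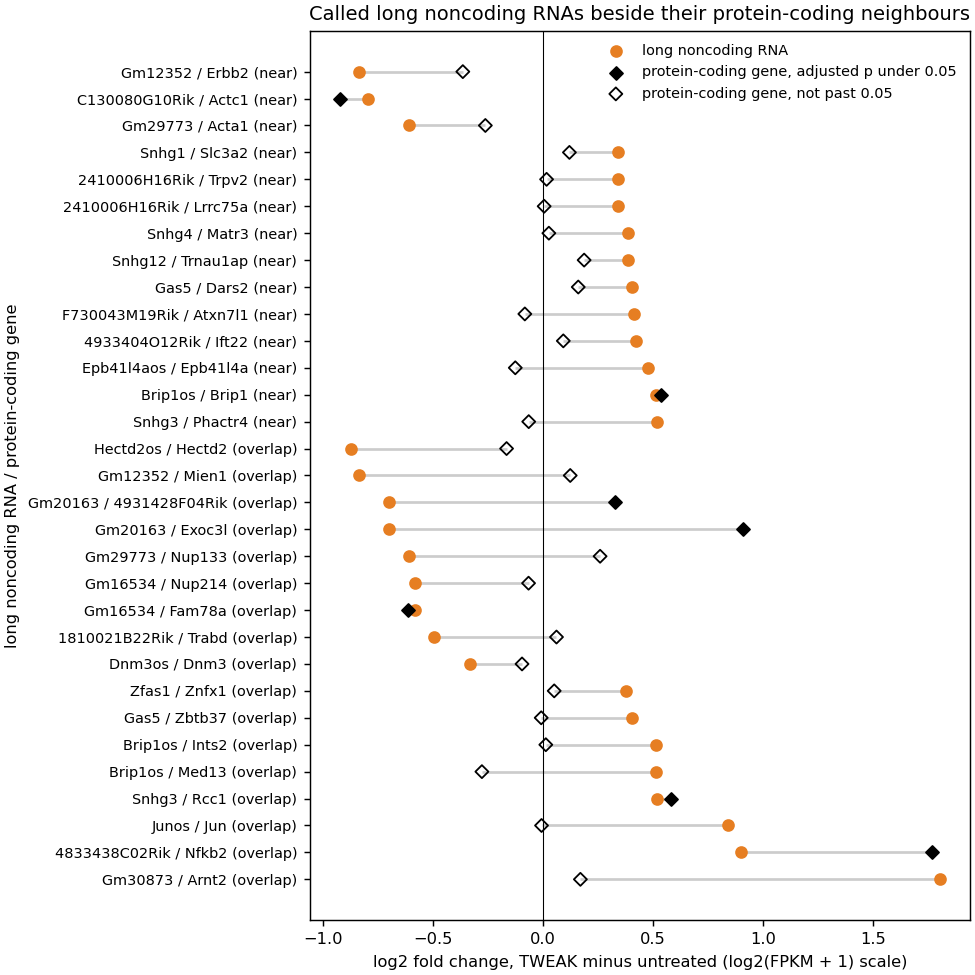
Each row pairs a long noncoding RNA that passed (orange circle) with a tested protein-coding gene that overlaps it or lies within 5 kb (diamond, filled where the adjusted p was under 0.05), on an axis of log2 fold change, TWEAK minus untreated. Filled diamonds are few: Nfkb2 at 1.77 and Actc1 at -0.92 lie on the side of their lncRNA, and Exoc3l at 0.91 lies across zero from Gm20163.

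No fall among the nuclear and chromatin lncRNAs passed the fit without the block. Of 11 such genes among the 197, 1 rose (Pvt1) and 0 fell, with a median log2 fold change of -0.23. With the replicate block 1 rose and 7 fell, where 23.9% of all 197 lncRNAs and 12.5% of all genes tested fell. At an unadjusted p under 0.05 in limma, 1 of the 11 was higher and 5 lower, where 81 of all 197 lncRNAs were under that p in either direction. Limma-voom called 1 of the 11 higher and 0 lower, and the authors' deposited table listed 1 and 4. Malat1 had 296, 291 and 270 FPKM with TWEAK, against 306, 369 and 401 FPKM without. Every TWEAK value was below every untreated value, at 1.26-fold lower (log2 fold change -0.32, SE 0.11, limma adjusted p = 0.0735 without and 0.0248 with the replicate block). The authors' deposited table gives Malat1 an adjusted p of 0.00867.

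Xist had 45.3, 46.9 and 33.6 FPKM with TWEAK, against 48.9, 53.0 and 54.7 FPKM without, 1.24-fold lower (log2 fold change -0.32, limma adjusted p = 0.10 without and 0.0217 with the replicate block). The difference was widest in trial 3. Ftx, an activator of Xist in mouse, had 2.22, 1.92 and 2.38 FPKM with TWEAK, against 2.57, 2.69 and 2.91 FPKM without (limma adjusted p = 0.107, and 0.0460 with the block). Firre, an X-linked RNA that shapes nuclear organisation, had 7.17, 7.90 and 6.51 FPKM with TWEAK, against 8.28, 10.1 and 8.37 FPKM without (limma adjusted p = 0.0885, and 0.00878 with the block). In these 3 X-linked genes the groups did not overlap. Of all 9 lncRNAs on the X chromosome, 4 had all TWEAK libraries below all untreated libraries and 1 had all above. Of all 197 lncRNAs 20.8% were apart on the lower side and 17.3% on the higher, and of all genes tested 15.9% and 20%. On the X chromosome 0 passed limma without the block, and 1 rose and 3 fell with it. With the block 17.8% of all 197 lncRNAs rose and 23.9% fell, and of all genes tested 15.4% and 12.5%. Limma-voom called 0 of the 9, and at an unadjusted p under 0.05 in limma 1 was higher and 3 lower.

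Neat1, the scaffold of paraspeckles, had 27.2, 22.3 and 17.9 FPKM with TWEAK, against 29.3, 27.0 and 20.4 FPKM without. The groups overlapped, and the trials differed more than the treatments did; within each trial the TWEAK value was the lower one (limma adjusted p = 0.489 without and 0.0485 with the replicate block). Airn, the imprinted RNA that silences Igf2r in cis, had 3.06, 3.58 and 2.05 FPKM with TWEAK, against 4.20, 4.27 and 2.85 FPKM without (adjusted p = 0.262, and 0.0105 with the block). Peg13, the second imprinted lncRNA in the group, was at 4.14 ± 0.285 FPKM with TWEAK and 4.97 ± 0.392 FPKM without (adjusted p = 0.117, and 0.0404 with the block). Hotairm1, from the HoxA cluster, was at 2.61 ± 0.556 FPKM with TWEAK and 3.65 ± 0.388 FPKM without (adjusted p = 0.0671, and 0.00305 with the block). By contrast Norad, which binds Pumilio proteins, had 36.6, 38.7 and 38.4 FPKM with TWEAK, against 38.0, 35.4 and 39.1 FPKM without (limma adjusted p = 0.900, log2 fold change 0.02, SE 0.07). Its sign turned under quantile normalization and under rescaling to TPM, and also without untreated replicate 2. Morrbid (log2 fold change -0.07), which acts on Bcl2l11 in mouse myeloid cells, and Bvht (-0.03), known from mouse heart development, passed in neither fit. Meg3 was listed at 0 in all libraries.

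Of the 10 microRNA hosts without a snoRNA, 1 fell (10%), near the 8.12% of all 197 lncRNAs. The level summed over them was 119, 114 and 112 FPKM with TWEAK, against 132, 140 and 133 FPKM without. Most of that sum came from Gm28653 and Mir22hg, with means over the 6 libraries of 47.5 and 46.2 FPKM, and neither passed limma without the block. Of the 10 hosts, 9 had a negative log2 fold change. With the replicate block 5 of the 10 fell, against 23.9% of all 197 lncRNAs and 12.5% of all genes tested. The 3p arm of each microRNA of the 3 hosts described next is given to show what these transcripts carry. They are RefSeq sequences on GRCm38.p6, with the seed (bases 2 to 8) in capitals.
mmu-miR-206-3p: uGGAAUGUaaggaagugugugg
mmu-miR-133b-3p: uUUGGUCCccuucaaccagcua
mmu-miR-199a-3p: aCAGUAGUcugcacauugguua
mmu-miR-214-3p: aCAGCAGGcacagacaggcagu
mmu-miR-22-3p: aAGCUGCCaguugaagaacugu
No 2 of these 5 share a seed. Their own levels were not measured.

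Gm28653 (ENSMUSG00000099906.3, GRCm39 chr1:20740106-20754522) spans the genes of miR-206 and miR-133b, which are enriched in muscle. It had 47.1, 41.5 and 41.3 FPKM with TWEAK, against 52.8, 54.2 and 47.9 FPKM without. The groups did not overlap, at 1.19-fold lower (log2 fold change -0.25, SE 0.08, limma adjusted p = 0.0611 without and 0.0122 with the replicate block). Dnm3os, antisense to Dnm3 and needed for skeletal development in mice, carries miR-199a-2 and miR-214. It had 3.44, 3.37 and 3.78 FPKM with TWEAK, against 4.21, 4.49 and 5.45 FPKM without, 1.34-fold lower (log2 fold change -0.33, SE 0.10, limma adjusted p = 0.0479). That call was lost without any of the 6 libraries, at adjusted p values from 0.0520 to 0.155. Mir22hg, host of miR-22, had 40.8, 43.4 and 46.1 FPKM with TWEAK, against 47.4, 50.1 and 49.6 FPKM without (log2 fold change -0.17, limma adjusted p = 0.121, and 0.0540 with the block).

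Mir100hg and Gm28119 carry the same miR-125b-1 locus, so their reads may be split between 2 gene models. Mir100hg was at 7.51 ± 0.302 FPKM with TWEAK and 7.31 ± 1.19 FPKM without (limma adjusted p = 0.819). Gm28119 had 3.42, 3.28 and 0.451 FPKM with TWEAK, against 3.35, 5.11 and 3.97 FPKM without, from 69 reads with TWEAK and 131 without. Its low mean with TWEAK rests on replicate 3 (limma adjusted p = 0.201, and 0.0229 with the block). Gm27028, at the miR-30c-2 locus, had 3.38, 2.67 and 1.35 FPKM with TWEAK, against 5.23, 3.51 and 3.34 FPKM without (adjusted p = 0.118, and 0.00101 with the block).

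**Figure D5:**
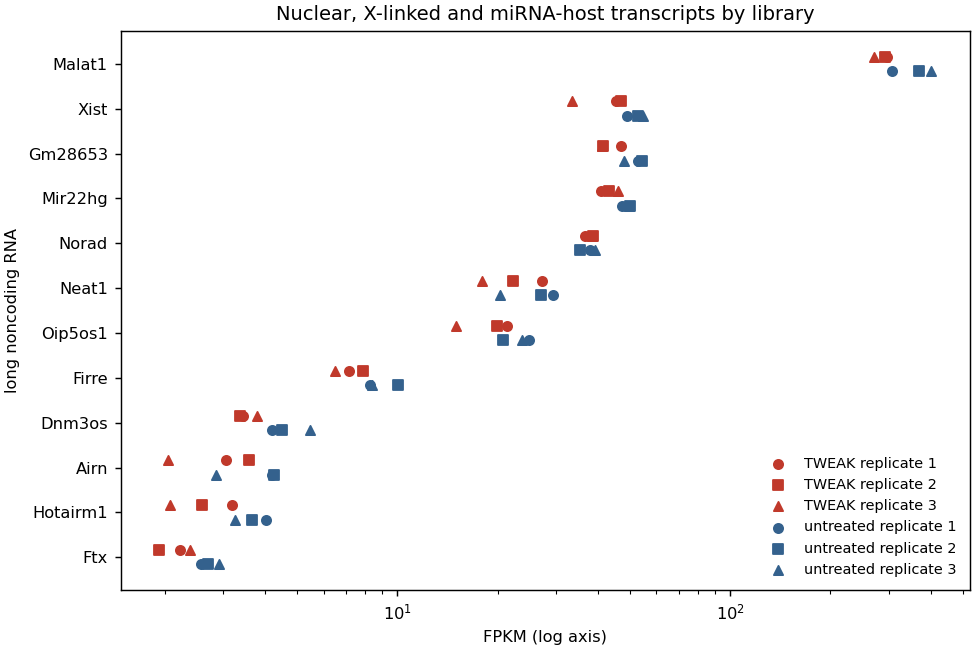
FPKM per library on a log axis for 12 nuclear, X-linked and microRNA-host transcripts, TWEAK in red above untreated in blue, with a shape for each trial. Malat1, Xist and Gm28653 show TWEAK points left of all untreated points, Norad at 36.6 to 38.7 FPKM with TWEAK and 35.4 to 39.1 FPKM without shows none of this, and Neat1 spreads by trial.

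Lists of lncRNAs with reported roles in muscle and in stress responses overlap those above. Of 31 names on the muscle list, 19 matched a lncRNA row by symbol, so genes listed under another name may be missed. Of 8 muscle-related lncRNAs so found among the 197, 1 rose (Snhg1) and 0 fell, with a median log2 fold change of -0.24. With the replicate block 1 of the 8 rose and 6 fell. With the block 17.8% of all 197 lncRNAs rose and 23.9% fell, and of all genes tested 15.4% and 12.5%. These shares also stand beside the block counts of the lists below. At an unadjusted p under 0.05 in limma, 1 of the 8 was higher and 4 lower. Of all 197 lncRNAs, 81 were under that p in either direction. Limma-voom called 1 of the 8 higher and 0 lower. Oip5os1, also called Cyrano and known to promote decay of miR-7, had 21.3, 19.9 and 15.0 FPKM with TWEAK, against 24.9, 20.8 and 23.6 FPKM without (limma adjusted p = 0.135, and 0.0242 with the block). Also called lower with the block and not without it were 2310043M15Rik (adjusted p = 0.298 without it and 0.00629 with it) and 2310065F04Rik (adjusted p = 0.320 without it and 0.0445 with it). Of 6 stress- and NF-kB-related lncRNAs, 2 rose (Gas5 and Pvt1) and 0 fell in limma, 2 rose and 2 fell with the block, and 2 were higher and 2 lower at an unadjusted p under 0.05. Of 4 lncRNAs on the microRNA host list, 0 passed limma or limma-voom. With the block 1 rose and 1 fell, and at an unadjusted p under 0.05 there was 1 higher and 2 lower. The 1 that was higher, both times, was 1110038B12Rik. By GENCODE M21 it carries snoRNAs and no microRNA, and it is counted among the 21 snoRNA hosts above.

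The authors' own comparison, in the authors' deposited table, called 54 of the 197 lncRNAs at an adjusted p under 0.05, 28 higher and 26 lower, or 27.4% of them against 20.6% of all genes with an adjusted p there. By direction the shares were 14.2% higher and 13.2% lower among the lncRNAs, and 11.2% higher and 9.38% lower among all genes. These included 39 of the 42 lncRNAs called by limma. The 3 that the authors' deposited table does not call are Gm33424 (adjusted p = 0.0853), Gm12415 (0.0667) and B230206L02Rik (0.145).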

How the data were processed

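RNA-seq of 3 TWEAK-treated and 3 untreated C2C12 libraries was analysed from the deposited table. The authors' tools and build, per the submitters' processing notes, were STAR 2.6.0c, HTSeq 0.6.1p2, Trim Galore 0.5.0, DESeq2 1.22.2 and GRCm39. Not given in the sources used here are the settings, the annotation release and whether counting used the strand. Per the file headers, the authors deposited FPKM per library and gene. The deposited table also holds, per the file headers, a mean normalized count (a signal over the authors' fit), a log2 fold change with its standard error, a test statistic (a score) and p-values. That mean is above 0 for 2337 rows listed at 0 in all 6 libraries, so other libraries, not used here, entered the authors' fit. The number of per-sample columns without a sample was 0.

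limma 3.58.1 (R 4.3.3) was fitted with a trend to log2(FPKM + 1) of the 12770 genes with a mean of at least 0.5 FPKM, with group as the only term; p-values were two-sided and adjusted by Benjamini-Hochberg at 0.05. All 197 lncRNAs met this minimum. The script was tested on simulated data. An FPKM is a whole read number over a length and a library factor, which allowed the reads to be recovered: of the values above 0, all 126386 were whole within a tolerance of 1e-06, and for 265 tested genes, 4 of them lncRNAs described here, a common factor had to be put back. Their number limits precision, and they served for depth and for limma-voom as an alternative.

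Deviations from group means correlated at 0.473, 0.218 and 0.434 between same-numbered libraries of trials 1, 2 and 3, so the numbers were taken to pair the libraries. The labels do not state such a pairing.

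Overlaps come from the deposited GRCm39 positions; strands and carried small RNAs from GENCODE M21 by gene ID (197 of 197 matched); promoters (114 of 197 matched) and microRNAs from RefSeq GRCm38.p6. Python 3.11.15, numpy 2.4.6, pandas 2.3.3 and matplotlib 3.10.9 were used. The members and lists were chosen with earlier results of these data known. Named genes are the 15 largest rises and falls past the threshold, the 10 highest levels, the listed genes, those beside the level threshold and their overlapping protein-coding genes. Other lncRNAs, the remaining small RNA hosts among them, and genes within 5 kb were named after their values were seen. Alternatives were other pseudocounts, filters and scalings, the replicate block, limma-voom, and each library left out; limma-voom with the block was chosen after seeing the data.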

Additional observations from a re-analysis of the deposited data

How the results depend on the processing

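Of 1005 results for 67 single lncRNAs under the alternatives, 808 kept their direction and side of the threshold, 145 lost the call and 44 gained one; 8 values of uncalled genes changed sign, and no call was reversed. All 42 lncRNA calls remained with a pseudocount of 0.1 or 0.5, with a filter at 2 FPKM and with the replicate block, 39 with quantile normalization, 38 with rescaling to TPM and 37 with limma-voom; 11 remained in every setting.

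With no filter on low values, 11 lncRNAs passed, 6 higher and 5 lower, 1 of them a snoRNA host, and 801 of all genes, 499 higher and 302 lower; the number tested is larger there. With the replicate block the counts were 82 lncRNAs, 47 of them lower, and 3563 genes, 1965 higher and 1598 lower. With limma-voom and the block they were 72 lncRNAs, 41 lower, and 3979 genes, 1996 higher and 1983 lower; the median log2 fold change of the lncRNAs was -0.0731 with limma-voom and -0.0700 with the block added. The cause was not tested.

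Without 1 library, 16 to 56 lncRNAs passed, 9 to 30 higher and 7 to 26 lower, with a median from -0.0697 to -0.0358; 3 to 16 snoRNA hosts passed, all higher. Over all genes 844 to 2101 passed, 501 to 1266 higher and 343 to 835 lower. The number of snoRNA hosts that fell was 0 in every setting. Depth limits the 17 lncRNAs with fewer than 300 reads in all.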
